A study of Drosophila melanogaster with 6 samples.

Results

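The genes described here govern the storage and synthesis of fat in Drosophila melanogaster. They are the triglyceride lipase gene bmm (brummer), the perilipin genes Lsd-1 and Lsd-2, the lipoprotein gene apolpp (apolipophorin), the fatty acid synthase gene FASN1, the desaturase gene Desat1, the phosphatidate phosphatase gene Lpin (Lipin), the diacylglycerol acyltransferase gene mdy (midway) and the alcohol dehydrogenase gene Adh, which is strongly expressed in the fat body. They were taken by name from the array annotation, 9 genes in all. Of these, 8 had a probe set of their own, among 11982 genes measured that way. Adh had none: both probe sets that list it also list its neighbour Adhr, so no value is given for Adh.

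The Affymetrix Drosophila Genome 2.0 array, which reads transcript levels through sets of short probes, was used on total RNA of whole embryos. The null group had the genotype foxLCr/foxL1del, 2 alleles of the forkhead transcription factor gene FoxL1. Its embryos came from flies of that genotype, so single embryos may carry these alleles in other combinations. The control was the Oregon R wild-type line, and no other allele or treatment is named for either group. Each genotype had 3 arrays, described in the labels as independent biological samples of stages 11 to 15, collected over 8 h and aged for a further 11 h, from whole embryos whose number per sample is not given. That ageing, at room temperature, would take part of each collection beyond stage 15, so the labels leave the exact stages unsettled, and they also give 2 different amounts of input RNA. Because each genotype was a line of its own, the effect of FoxL1 and of the line's background cannot be told apart. Loss of FoxL1 in the mother and in the embryo cannot be told apart, since the mothers carried the alleles too. Fewer cells of a type and less RNA per cell cannot be told apart either in whole embryos.

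Fat is held as triglyceride in lipid droplets, chiefly in the fat body, the insect counterpart of liver and adipose tissue, which forms during mid-embryogenesis. The mother also loads the egg with droplets, which feed the embryo until it hatches. Fatty acids are built by the synthase, desaturated, joined to glycerol by a chain of acyltransferases with Lipin in the middle and a diacylglycerol acyltransferase at the end, coated on the droplet by perilipins, released by lipases and carried between organs by lipophorin.

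FoxL1 itself read 4.85, 5.12 and 5.01 in wild-type embryos, against 4.23, 4.35 and 3.37 in null embryos (log2 signal; limma log2 difference -1.01, SE 0.25, adjusted p = 0.0489), with no overlap. Null array 3 stood apart from the rest. The 3' minus 5' difference of an actin control probe set, a sign of RNA quality, was 0.20 there and 0.67 to 0.82 on the other arrays (log2), and its array weight was the lowest, 0.317. Values without that array are given beside the members whose difference it moved most. FoxL1 had its lowest value, 3.37, on that array, and no FoxL1 difference without it is given.

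None of the measured members passed the threshold between the genotypes. Of the 8 measured members 0 passed in limma (adjusted p under 0.05 over all probe sets) and 1, Lpin, had an unadjusted p under 0.05. Across all genes 10.2% passed the adjusted threshold and 27.1% the unadjusted one, so a count of 0 or 1 among 8 lies near the background. The members' differences ran from -0.44 to 0.23, with 4 higher and 4 lower in the null group and a median of 0.03 (log2, null minus wild type), against a median of -0.07 over all genes. The 95% interval excluded a 2-fold change in either direction for 7 of the 8, the exception being FASN1. With the replicate numbers as a block 0 of the 8 passed, where 17.0% of all genes did.

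**Figure D1:**
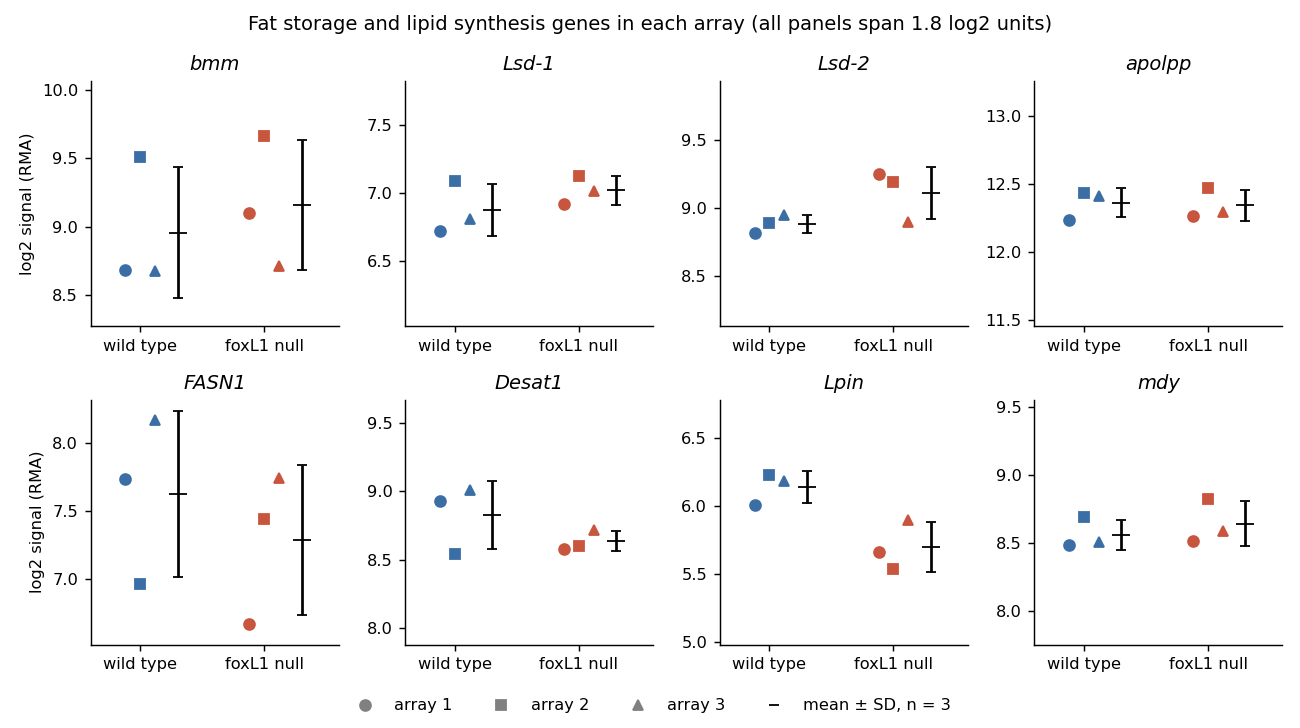
Log2 signal (y axis) of the 8 measured members in each array, wild type in blue and null in red, with array numbers as marker shapes and the mean ± SD (n = 3) in black; every panel spans the same number of log2 units. Lpin is the member whose null arrays all lie below its wild-type arrays, and bmm and FASN1 have the widest spread within a genotype.

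Of the 8 measured members, Lpin came nearest to a call. Lipin removes phosphate from phosphatidic acid to give diacylglycerol, and larvae without it have an underdeveloped fat body. Its log2 signal was 6.01, 6.23 and 6.19 on the wild-type arrays, compared with 5.67, 5.54 and 5.90 on the null arrays. All 3 null values lay below all 3 wild-type values, and Lpin was the member, 1 of 8, whose groups did not overlap, a separation that 31.9% of all genes had. The means were 6.14 ± 0.12 and 5.70 ± 0.18 (SD, n = 3 each), 1.36-fold lower in the null group (limma log2 difference -0.44, SE 0.13, 95% interval -0.74 to -0.15, adjusted p = 0.0828). Null array 3, which stood apart in the actin control without a sign of degraded RNA, had the highest Lpin value of the null group. Without it the difference was -0.54 and passed (adjusted p = 0.0376), as it did when the arrays were weighted (-0.48, adjusted p = 0.0175). The weighting counts that same array least (0.317), so the weighted result is not separate from the one without it. Leaving out any other single array gave -0.51 to -0.36, with an adjusted p of up to 0.253. After another quantile normalization it was -0.30 (adjusted p = 0.277), and median centring of the arrays gave -0.32 (adjusted p = 0.246).

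The gene of the last step, mdy, which encodes the acyltransferase that turns diacylglycerol into triglyceride and is needed in nurse cells of the ovary, had nearly equal means in both genotypes. Its values were 8.48, 8.69 and 8.51 in wild-type embryos, against 8.52, 8.83 and 8.59 in null embryos. The groups overlapped, array 2 being the highest in each. The difference was 0.08 (SE 0.12, 95% interval -0.20 to 0.37, limma adjusted p = 0.762), so a change beyond 1.29-fold upward or 1.15-fold downward lay outside the interval.

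The genes of fatty acid synthesis had lower means in the null group, and neither passed. FASN1, whose product builds palmitate from malonyl-CoA, had 7.73, 6.96 and 8.17 on the wild-type arrays, compared with 6.67, 7.44 and 7.74 on the null arrays. The genotypes overlapped broadly, and wild-type array 2 read below 2 of the 3 null arrays. The means were 7.62 ± 0.61 and 7.28 ± 0.55 (SD, n = 3 each), a difference of -0.34 in limma (SE 0.35, adjusted p = 0.658). The 95% interval, -1.16 to 0.49, reached from 2.24-fold lower to 1.40-fold higher, the widest among the members. The difference was -0.57 without null array 3 (adjusted p = 0.477), and with another array left out it ran from -0.67 without wild-type array 2 to -0.03 without null array 1, and so these arrays leave a change of moderate size undetectable for FASN1.

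Desat1, which puts a double bond into newly made fatty acids, read 8.93, 8.54 and 9.01 in wild-type embryos, against 8.58, 8.60 and 8.72 in null embryos. Wild-type array 2 was the lowest of all 6 and the other wild-type arrays were the highest. The difference was -0.19 (SE 0.14, 95% interval -0.52 to 0.14, limma adjusted p = 0.510), and without wild-type array 2, in which FASN1 was also at its wild-type low, it was -0.33 (adjusted p = 0.212). Without wild-type array 3 it was -0.10 (adjusted p = 0.844), and median centring gave -0.07 (adjusted p = 0.798).

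The droplet coat genes had higher means in the null group, and neither passed. Lsd-1 encodes the perilipin through which hormones stimulate lipolysis, and Lsd-2 the perilipin that shields droplets from lipases and takes part in moving them in the early embryo. Lsd-2 read 8.81, 8.89 and 8.95 on the wild-type arrays, compared with 9.25, 9.19 and 8.89 on the null arrays. Null arrays 1 and 2 lay above every wild-type array, while null array 3 fell among them. The difference was 0.23 (SE 0.12, 95% interval -0.06 to 0.51, limma adjusted p = 0.349), and 0.34 without null array 3 (adjusted p = 0.0910). Lsd-1 read 6.72, 7.09 and 6.81 in wild-type embryos, against 6.92, 7.12 and 7.02 in null embryos. Here each null array lay above the wild-type array of the same number, yet the groups overlapped (difference 0.15, SE 0.13, 95% interval -0.15 to 0.44, limma adjusted p = 0.589).

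The lipase gene bmm, whose product is the fly counterpart of adipose triglyceride lipase, varied more between arrays than between genotypes. It read 8.68, 9.51 and 8.68 on the wild-type arrays, compared with 9.10, 9.66 and 8.71 on the null arrays. Array 2 was clearly the highest in both genotypes. The means were 8.96 ± 0.48 and 9.16 ± 0.48 (SD, n = 3 each), a difference of 0.20 in limma (SE 0.30, 95% interval -0.49 to 0.89, adjusted p = 0.764). Within the same-numbered pairs the null array was higher by 0.42, 0.15 and 0.04, and with the pair as a block the SE was 0.12 (adjusted p = 0.347). The difference rested on single arrays: it was 0.43 without null array 3 and 0.48 without wild-type array 2, 0.07 without wild-type array 1 and 0.06 without wild-type array 3, and turned to -0.049 without null array 2.

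The carrier gene apolpp, which encodes both apolipophorins of the main lipoprotein of the hemolymph, gave the smallest difference. Its values were 12.24, 12.44 and 12.42 in wild-type embryos, against 12.27, 12.48 and 12.30 in null embryos. All 6 arrays lay within a narrow band that the genotypes shared (difference -0.02, SE 0.11, 95% interval -0.28 to 0.24, limma adjusted p = 0.951). The wild-type level was at percentile 99.5 of all probe sets. Its sign was not settled: the difference was 0.10 after median centring and 0.036 after another quantile normalization.

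**Figure D2:**
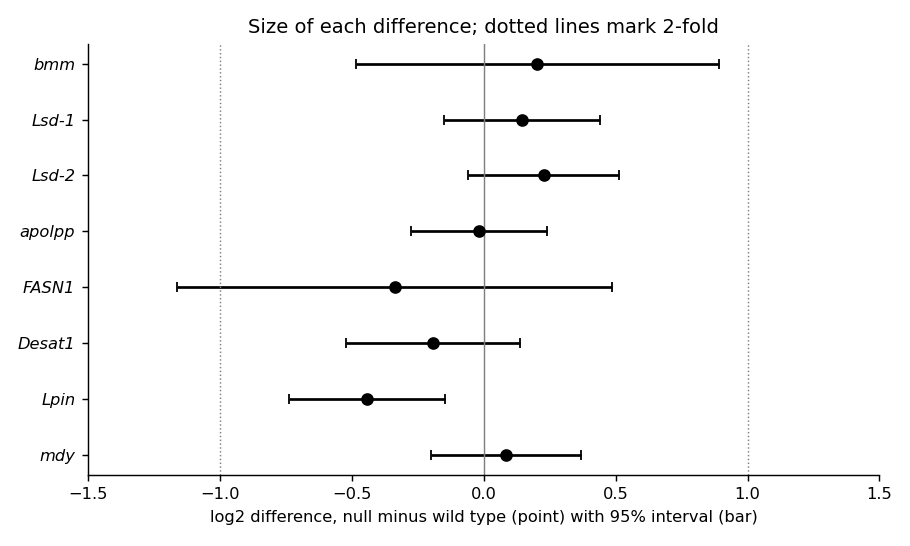
Log2 difference between null and wild type (x axis, point) with limma's 95% interval (bar) for each measured member, the dotted lines marking a 2-fold change. The interval of Lpin, -0.74 to -0.15, is the only one of the 8 that does not include 0, before any adjustment for the number of tests, and that of FASN1 extends past the lower 2-fold line.

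The members differed in how much they varied among arrays of one genotype. The within-group SD was 0.58 for FASN1 and 0.48 for bmm, at percentiles 97.6 and 95.7 of all genes, against a median of 0.17 over all genes. For the remaining 6 members it lay between 0.11 (apolpp) and 0.18 (Desat1). In the wild type the synthase was lowest and the lipase highest in array 2. In the null group bmm was again highest in array 2, whereas FASN1 was lowest in array 1. Over the 8 members, wild-type array 1 was the lowest of its group for 5 and null array 1 for 5, while wild-type array 2 was the highest for 5 and null array 2 for 4.

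**Figure D3:**
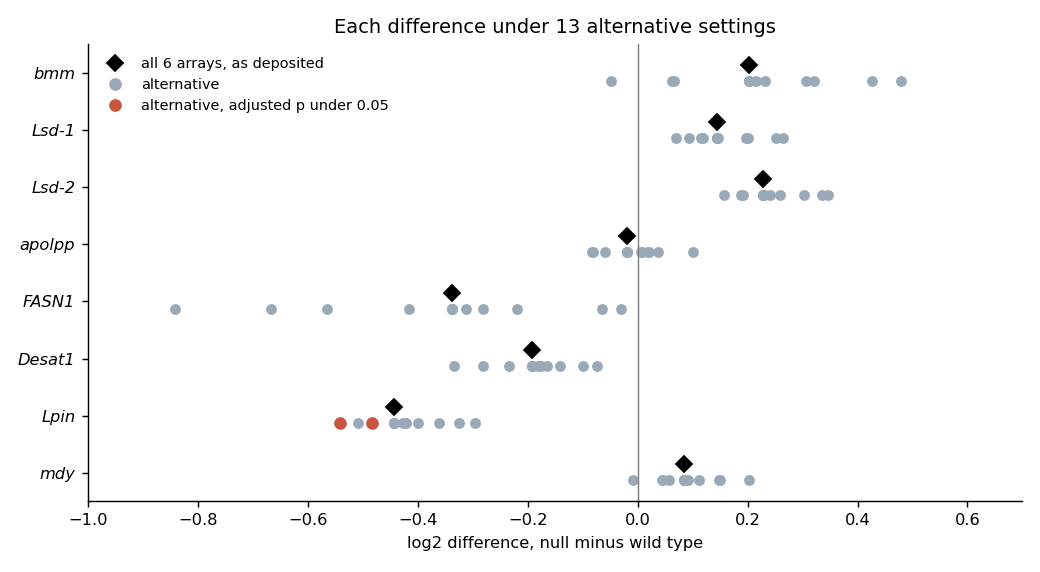
Log2 difference between null and wild type (x axis) of each measured member with all 6 arrays as deposited (black diamond) and under 13 alternative settings (points, red where the adjusted p was under 0.05). Lpin stays below 0 throughout and passes in 2 of the 13, the points of FASN1 run from -0.84 to -0.03, and those of bmm, apolpp and mdy fall on both sides of 0.

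Genes around these members in lipid metabolism were read from 6 lists, of which 103 of 120 genes had a probe set. Of the 103, 2 rose and 7 fell, 1.94% and 6.80%, beside 6.24% and 4.00% of all genes. The median difference was -0.11, and 68.9% of the list genes were lower in the null group, as were 60.0% of all genes. The median depended on the scaling. The array medians were 4.96 to 5.08 in the wild type and 4.87 to 4.94 in the null group (log2 signal over all probe sets), so they did not overlap, and after median centring of each array 4 rose and 3 fell among the list genes, and the lists' median was 0.0041. The centring moved the median of all probe sets from -0.03 to 0.09 and turned the split of called genes from 748 higher and 479 lower to 981 and 249. Without null array 3, 4 list genes rose and 4 fell, where 913 of all genes were higher and 358 lower. With the replicate block 3 rose and 13 fell, where 949 of all genes were higher and 1089 lower. The larger number of falls thus went with a larger number among all genes. These counts of all genes also belong beside the block counts of each lipid list below. Over the 6 arrays left out in turn, 1 to 4 rose and 2 to 8 fell, beside 367 to 913 and 161 to 445 of all genes. Without wild-type array 1 the counts were 1 and 2, where 423 of all genes were higher and 161 lower.

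The steepest changes were in the list of droplet proteins and lipases, where 1 of 13 measured genes rose, 1 fell and 11 did not pass. The riser was dob (doppelganger von brummer), a lipase gene related to bmm by its patatin domain. It read 5.84, 5.31 and 6.04 on the wild-type arrays, compared with 7.90, 7.77 and 8.03 on the null arrays. Every null array thus exceeded every wild-type array by over 1 log2 unit (4.51-fold, log2 difference 2.17, SE 0.19, limma adjusted p = 0.00122). The gene that fell was halo, whose product directs droplet transport along microtubules in the blastoderm, with 7.89, 7.98 and 7.41 in wild-type embryos, against 6.09, 5.42 and 5.62 in null embryos (4.15-fold lower, log2 difference -2.05, SE 0.21, limma adjusted p = 0.00202). Both calls held in all 13 alternatives, and with the replicate block 1 more gene of the list fell. The list median was -0.30, and -0.19 after centring.

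In the list of fatty acid synthesis, desaturation and elongation 0 of 18 rose and 1 fell. Men, the malic enzyme gene, which supplies reducing power for fatty acid synthesis, went from 10.07 ± 0.09 to 9.52 ± 0.15 (SD, n = 3 each), a log2 difference of -0.56 (SE 0.12, limma adjusted p = 0.0281). Leaving out any single wild-type array, or null array 1, ended its call, as did centring (adjusted p of up to 0.125). With the replicate block 3 genes of this list fell. The list median was -0.16, and -0.04 after centring.

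Of 17 genes of glycerolipid synthesis 0 rose and 2 fell, and with the replicate block 3 fell. Both that fell belong to the DGAT2 family of acyltransferases, which catalyses the same last step as the product of mdy. CG1941, listed beside them, did not pass and its groups overlapped (limma log2 difference -0.40, adjusted p = 0.355). Dgat2 went from 5.92 ± 0.18 to 5.28 ± 0.18 (SD, n = 3 each), 1.56-fold lower (log2 difference -0.64, SE 0.14, limma adjusted p = 0.0309). CG1946 read 4.74, 5.30 and 4.60 in wild-type embryos, against 4.02, 4.19 and 3.61 in null embryos (log2 difference -0.94, SE 0.22, adjusted p = 0.0399). Neither Dgat2 nor CG1946 overlapped between the genotypes, a separation that 6 of the 17 genes and 31.9% of all genes had. Each lost its call under both other scalings. Leaving out array 1 or 2 of the wild type or array 1 or 3 of the null group ended both calls (adjusted p of up to 0.120 for Dgat2 and 0.0975 for CG1946), and leaving out wild-type array 3 ended that of CG1946. The median of the list was -0.03, and 0.09 after centring.

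Of 17 lipoprotein and transport genes 1 rose and 1 fell. NLaz, which encodes a lipocalin of the apolipoprotein D family, rose from 6.19 ± 0.28 to 7.05 ± 0.31 (SD, n = 3 each), a log2 difference of 0.86 (SE 0.20, limma adjusted p = 0.0378). Fatp3, a fatty acid transport protein gene, fell from 6.33 ± 0.10 to 5.66 ± 0.26 (log2 difference -0.66, SE 0.15, adjusted p = 0.0341). The call of NLaz was lost when array 1 or 3 of the wild type, or array 1 or 2 of the null group, was left out (adjusted p of up to 0.143). That of Fatp3 ended when any single wild-type array, or null array 1 or 3, was left out and under both other scalings (up to 0.122). The list median was -0.22, and -0.10 after centring.

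In beta-oxidation, which breaks fatty acids down in mitochondria and peroxisomes, 0 of 14 genes rose and 1 fell, and with the replicate block 1 rose and 1 fell. Echs1, a mitochondrial enoyl-CoA hydratase gene, read 9.49, 9.16 and 9.23 on the wild-type arrays, compared with 8.61, 8.56 and 8.46 on the null arrays (1.68-fold lower, log2 difference -0.75, SE 0.12, limma adjusted p = 0.00976), and its call held in all 13 alternatives. The list median was -0.02, and 0.10 after centring. Among 24 hormones and regulators of fat storage 0 rose and 1 fell, and 3 fell with the replicate block. The gene that fell was bigmax, which encodes the partner of the sugar-sensing factor Mondo, from 7.77 ± 0.10 to 7.15 ± 0.06 (SD, n = 3 each), a log2 difference of -0.62 (SE 0.10, limma adjusted p = 0.0110, and 0.0555 without wild-type array 1). The list median was -0.11, and 0.01 after centring.

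**Figure D4:**
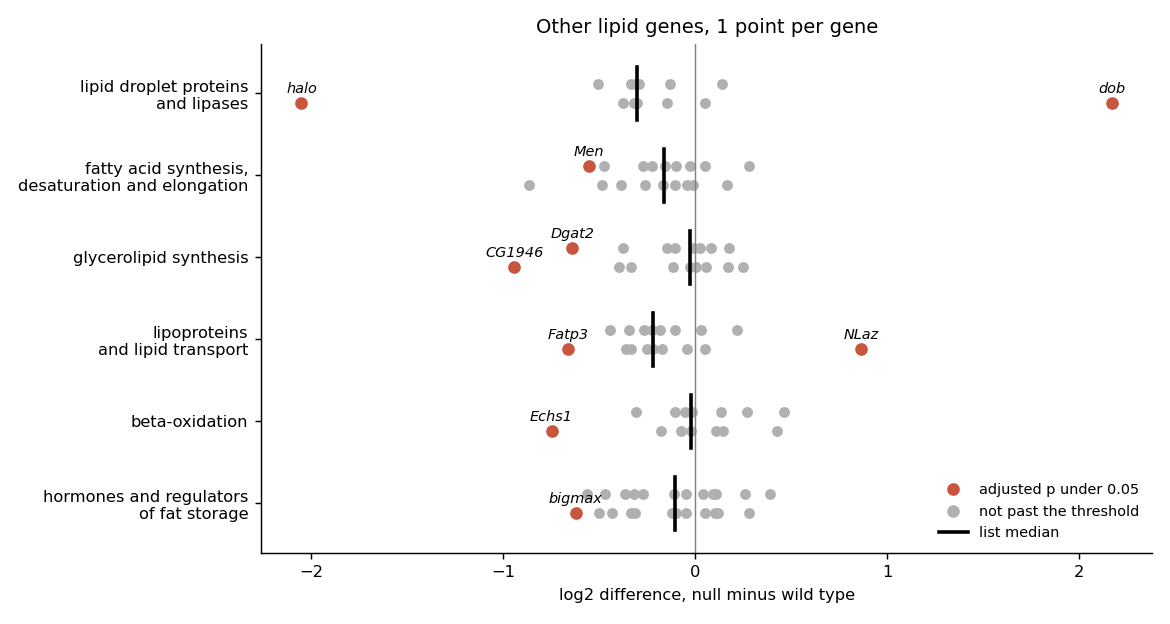
Log2 difference between null and wild type (x axis) of the measured genes in 6 lists of lipid metabolism (rows), 1 point per gene, red where limma's adjusted p was under 0.05, with the list median as a black bar. The genes dob, at 2.17, and halo, at -2.05, lie far outside the other genes of their list, and the remaining called genes lie between -0.94 and 0.86.

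Markers of the tissues that hold or make fat were read beside these values. Of 10 measured fat body genes 0 rose and 0 fell, where 6.24% and 4.00% of all genes did. An unadjusted p under 0.05 was found for 3, near the 27.1% of all genes. With the replicate block 1 rose, where 17.0% of all genes passed in either direction, a share that also belongs beside the block counts of the other tissue lists. The mean log2 signal of the fat body list was 7.07 to 7.18 in the wild-type arrays and 6.93 to 7.01 in the null arrays. The array medians did not overlap between the genotypes either, and the list's median difference was -0.23, and -0.11 after centring. The list's Fbp1 and Fbp2, known from the larval fat body, lay close to the floor of the arrays, at 3.56 and 3.05 in the wild type against a 25th percentile of 2.98, whereas srp, the GATA factor gene that specifies fat body and blood, read 9.14. Of 10 oenocyte genes, whose cells process lipids, and 14 hemocyte genes 0 passed in either direction, and 1 of each list fell with the replicate block. Their mean log2 signals were 6.42 to 6.60 and 6.46 to 6.56 in the wild type and 6.28 to 6.51 and 6.24 to 6.42 in the null group. The median difference was -0.13 for the oenocyte list (-0.01 after centring) and -0.20 for the hemocyte list (-0.08 after centring). In the lists for midgut and yolk, muscle, nervous system, epidermis and late tracheal and gland genes 0 passed as well, with 1 of the epidermis list and 1 of the late list falling under the replicate block. The gene srp stands in both the fat body and the hemocyte list, and svp in both the fat body and the oenocyte list.

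The early lists did move, where 6.24% of all genes rose and 4.00% fell, and 17.0% passed with the replicate block. Maternal and germline genes, where mdy and Lsd-2 are also active, rose at 7 of 14 and fell at 0, or 8 and 1 with the replicate block. The mean log2 signal of that list was 6.40 to 6.65 in the wild type and 7.19 to 7.46 in the null group, with tor at 2.48 (adjusted p = 0.000116) and bam at 1.95 (adjusted p = 0.000747; limma log2 differences). The list did not move as one: 5 of its 14 genes had lower means in the null group, namely nanos at -0.73 (adjusted p = 0.146), gnu at -0.67 (adjusted p = 0.262), osk at -0.62 (adjusted p = 0.216), png at -0.41 (adjusted p = 0.0978) and gcl at -0.34 (adjusted p = 0.293). They were named after their values were seen, and nanos was the gene that fell with the block (limma adjusted p = 0.0494). The genotypes did not overlap for nanos and png, as for 10 of the 14 genes and 31.9% of all genes. Without null array 2, or with array weights, 3 of the list fell, where 445 and 853 of all 11982 genes did. Of 14 early zygotic blastoderm genes, halo among them, 7 fell and 0 rose, and 10 fell with the replicate block. That list had a mean log2 signal of 6.87 to 7.13 in the wild type and 5.76 to 6.21 in the null group, and bnk went from 4.84 ± 0.07 to 3.84 ± 0.17 (SD, n = 3 each; limma adjusted p = 0.00309). The part of these early transcripts in the values of dob, halo, mdy and Lsd-2 was not tested.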

How the data were processed

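The authors deposited log2 expression values, 1 column per array, made with Partek and RMA per the submitters' processing notes; versions and a genome build are not given in the sources used here. RMA sets the arrays' probe intensities to a shared distribution before it summarises them, which can remove a change shared by most transcripts, and it compresses differences near the background. The medians of the deposited values still differed between the genotypes. Probe intensities and detection calls were not used here.

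After removal of 183 control probe sets, 18769 were tested: 13647 name 1 gene, 402 several and 4720 none here. Current symbols came from a RefSeq gene table (Release 6 plus ISO1 MT), used for names only, for 13544 of the 13647. A gene was read at its probe set of highest mean; each measured member had 1. Differences are null minus wild type from lmFit and eBayes (limma 3.58.1, R 4.3.3), without covariates, with 2-sided p-values adjusted across the 18769 probe sets by the Benjamini-Hochberg method, a threshold of 0.05 and limma's SE and 95% intervals. The code was tested on simulated data. An exact test of 3 against 3 arrays cannot go below 0.1, so the calls rest on limma's model of the spread; the number of arrays limits the precision.

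Members and lists were chosen with earlier results of these data known. The naming rule took all members, up to 4 called genes per lipid list, or the 2 of smallest p where none passed, up to 2 called genes per tissue list, and the nearest profiles to any called member, of which there were none. FoxL1 was added to it, as were CG1941, srp, Fbp1, Fbp2 and 5 maternal genes after their values were seen. Listed genes that share every probe set with another gene, or have none, were not analysed here. Sequences are not shown, since the reference used here held none.

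What the array numbers 1 to 3 in the titles stand for is not stated. Arrays of equal number deviated together from their group means, with correlations of 0.108, 0.544 and 0.224. Each exceeded 0.1, so equal numbers were taken as pairs in the fit with a replicate block, an alternative; the reported differences come from the fit without it. That pairing comes from the data and not the design. Wild-type array 1 correlated more with null array 3 (0.266). The alternatives were this replicate block, each array left out, another quantile normalization, median centring, array weights, eBayes with trend and robust settings, and filters at the 25th and 50th percentile of signal.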

Additional observations from a re-analysis of the deposited data

How the results depend on the processing

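The count of 0 called members held except with array weights (1) and without null array 3 (0 to 1 over left-out arrays), Lpin being the gene in both cases; the cause was not tested. The called probe sets, 1472 with all arrays, numbered 2441 with the replicate block, 2460 with array weights and 663 to 1513 with an array left out, where fewer arrays enter the fit; the block changed no member's call. Among members' differences that passed nowhere, the sign turned for apolpp (0.10 centred, 0.036 after another quantile normalization, -0.083 to 0.020 over left-out arrays), bmm (-0.049 to 0.48 over left-out arrays) and mdy (-0.0076 to 0.15). Lsd-1, Lsd-2, Lpin, Desat1 and FASN1 kept their direction in 13 of 13 alternatives. The mean of a gene's probe sets gave no new value, since each member had 1. Precision is limited by 3 arrays per group, most of all for FASN1 and bmm, and weakly expressed genes by the background.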

Other observations

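The genes of the adipokinetic hormone and its receptor did not pass the threshold; all genes here were singled out after their values were seen. Akh, the hormone that mobilises stored fat, read 5.12, 4.89 and 4.91 in wild-type embryos, against 4.64, 4.34 and 4.43 in null embryos, with no overlap (limma log2 difference -0.50, SE 0.12, adjusted p = 0.0504). With the replicate block it passed (adjusted p = 0.0208), as did 17.0% of all genes. The gene of its receptor, AkhR, was also separate between the genotypes, at -0.37 (SE 0.11, adjusted p = 0.0945, and 0.0623 with the block). Such a separation was found for 31.9% of all genes. Values after centring or with an array left out are not given for Akh and AkhR. Of the 24 measured hormones and regulators 15 had lower means in the null group, near the 60.0% of all genes that did. Among those that were higher, dome was at 0.39, also without overlap (limma adjusted p = 0.105). The fat body and blood factor gene srp differed by -0.58 (SE 0.17, adjusted p = 0.0934, and 0.0647 with the block), again without overlap, while the lipid transfer particle gene Apoltp, which loads lipophorin, was at -0.23 (SE 0.14, adjusted p = 0.410) with overlapping groups. In the fat body list, which holds both, 7 of the 10 measured genes had lower means in the null group, beside that 60.0% of all genes. The rest went the other way: Drs at 0.46 (limma adjusted p = 0.160), Lsp2 at 0.18 (adjusted p = 0.600) and Adgf-A at 0.11 (adjusted p = 0.804). Drs was the gene of that list that rose with the block (adjusted p = 0.0329).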
